A study of Mus musculus with 16 samples.

Results

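The cytosolic ribosomal protein genes of mouse oligodendrocyte preparations were examined across genotype and diet. Members were the genes named Rps or Rpl with a number, plus Rplp0, Rplp1, Rplp2 and Rpsa, that are not annotated as pseudogenes and averaged at least 1 CPM (counts scaled to a common library size) over 15 of the 16 libraries. Of 53801 rows of the gene table, 83 matched the naming pattern and 77 were members, 46 of the large and 31 of the small ribosomal subunit. Of the other 6, 4 were under 1 CPM (Rpl10l, Rpl3l, Rpl39l and the pseudogene Rpl32l) and 2 were annotated pseudogenes above it (Rpl6l and Rps4l). All 77 members passed the filter on low counts. The rule itself uses no difference between groups, but it was set with earlier results of these data known.

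Brains came from male mice aged 8 months, of 2 strains on 2 diets, with 4 libraries in each group. The wild-type mice were C57BL/6J Jcl, bought from a breeder. App mice were homozygous for the NL-G-F knock-in, in which the App gene itself carries a humanised amyloid-beta sequence with the Swedish, Beyreuther/Iberian and Arctic mutations, and they were kept as an inbred line, so genotype and colony cannot be told apart. From 2 months of age and for 6 months, mice ate the CE-2 control diet (NCD, 12.5% of energy as fat) or the D12492 high-fat diet (HFD, 60% of energy as fat). After perfusion with saline, oligodendrocytes were isolated by magnetic sorting and their polyadenylated RNA was sequenced. The groups are called WT_NCD (libraries 4, 5, 11 and 12), WT_HFD (2, 3, 15 and 16), App_NCD (537, 538, 545 and 553) and App_HFD (547, 559, 560 and 561), and values are given in that order of libraries. No label says whether each library was 1 mouse, and p-values measure the spread between these libraries.

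Each ribosome joins a small subunit, which reads the mRNA, to a large subunit, which forms the peptide bond, and every particle needs its proteins in matched amounts. The mRNAs of these proteins begin with a 5′ terminal oligopyrimidine (5′ TOP) tract, a cytosine followed by an unbroken run of pyrimidines, through which the kinase complex mTORC1 controls their translation as a group. They are short and abundant, and the mouse genome holds many processed pseudogene copies of them, so that reads can be shared between a gene and its copies.

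Starts of 7 transcripts are shown, 5 with a tract at the annotated base and 2 without, because the 5′ TOP tract is what the family is known for. They are not typical, since most members lack a tract at that base. RefSeq start sites (GRCm38.p6) were matched by symbol for 57 of the 77 members. Each line gives 15 bases before and 15 bases from the annotated start, 5′ to 3′ on the gene's strand, with the cytosine at the start and the pyrimidines that follow it without a break in capitals.
Rpl15 (chr14:18270972-18271001, minus strand): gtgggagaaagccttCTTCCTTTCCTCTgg
Rps10 (chr17:27635230-27635259, minus strand): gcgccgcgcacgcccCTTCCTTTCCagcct
Rps6 (chr4:86857353-86857382, minus strand): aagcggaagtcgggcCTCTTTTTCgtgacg
Rps27 (chr3:90213634-90213663, minus strand): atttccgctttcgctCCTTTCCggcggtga
Rplp2 (chr7:141447636-141447665, plus strand): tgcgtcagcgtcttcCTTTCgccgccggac
Rps28 (chr17:33824548-33824577, minus strand): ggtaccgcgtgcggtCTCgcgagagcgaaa
Rpl12 (chr2:32961697-32961726, plus strand): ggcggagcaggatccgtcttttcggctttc

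A tract of at least 5 bases exactly at the annotated start was found in 13 of 57 members (22.8%), against 3.01% of 27025 genes with a RefSeq start. A run of at least 8 pyrimidines within 50 bases of either side of the start was found in 49 of 57 members (86.0%), against 39.3% of all genes. Rps28 had only 3 capital letters at its annotated start, and Rpl12 had none, because its annotated start is a guanine between pyrimidines. A missing match says only that those letters are not at the annotated base.

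Library depth was 90220118 to 217925484 estimated counts in the wild-type and 64538297 to 101709022 in the App libraries. Library App_NCD 553 stood apart: 39.4% of its counts were mitochondrial, against 1.22 to 4.62% in the others, and 18928 genes were detected in it, against 27151 to 30617. Its TMM factor, which scales the library size used for CPM, was 0.493, against 0.984 to 1.11 in the others. A low factor raises the CPM of a library, so where the CPM of 553 lie relative to other libraries depends on that scaling. Counts and medians over the members are therefore given with all 16 libraries and with the 15 others, as are most control-diet values of single genes. The sorted cells also held microglial RNA, with all 14 homeostatic markers and all 11 plaque-associated markers in the table detected in each group. The summed level of the homeostatic markers was 2910.4 to 6406 CPM in the wild-type libraries and 7246 to 15241 CPM in the App libraries, and that of the plaque-associated markers was 551 to 850.02 CPM and 4503 to 8021 CPM. The 16 myelin markers overlapped between genotypes, at 37013 to 51755 and 31754 to 53368 CPM.

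Ribosomal protein genes took a larger share of all counts in most App libraries. The share was 1.20, 1.13, 1.03 and 1.14% in WT_NCD and 0.986, 0.930, 1.19 and 1.32% in WT_HFD. It was 1.25, 2.55, 2.72 and 0.698% in App_NCD and 2.69, 2.22, 1.84 and 1.50% in App_HFD. All 4 App_HFD libraries and App_NCD 538 and 545 lay above every wild-type library, whereas App_NCD 537 lay within the wild-type range and App_NCD 553 below it. The group means were 1.13% ± 0.071 in WT_NCD, 1.11% ± 0.180 in WT_HFD, 1.80% ± 0.991 in App_NCD and 2.06% ± 0.514 in App_HFD (SD, n = 4 each), and App_NCD was 2.17% ± 0.809 (SD, n = 3) without 553. With mitochondrial counts left out of the total, the share of 553 was 1.15%, within the 0.962 to 1.36% of the wild-type libraries on that measure. In these bulk samples, fewer cells of a type and less RNA per cell cannot be told apart, and neither can a change in the cells from a change in the mixture.

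**Figure D1:**
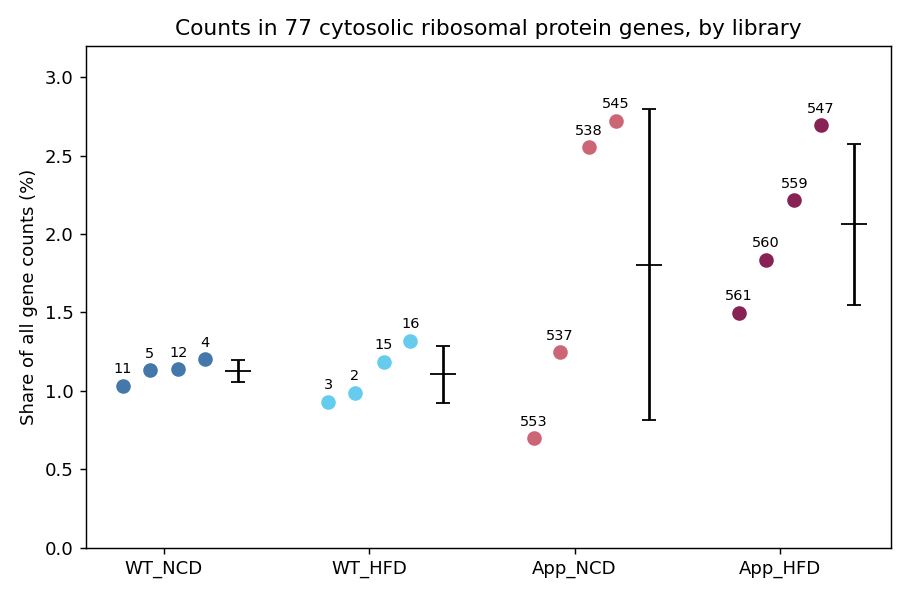
Share of all gene counts (percent, vertical axis) in the 77 ribosomal protein genes, with 1 point per library labelled by its number and a bar for the mean and SD of the 4 libraries of each group. The 8 wild-type libraries lie between 0.930 and 1.32%, 6 App libraries lie above them at 1.50 to 2.72%, and App_NCD 537 and 553 do not.

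In 3 App libraries the higher level extended over every member, and in App_NCD 537 and 553 it did not. In App_NCD 538, App_NCD 545 and App_HFD 547 every one of the 77 members was above all 8 wild-type libraries, and the median member was at 2.54, 2.79 and 2.72 times its wild-type mean. The number above all wild-type libraries was 75 in App_HFD 559, 74 in App_HFD 560 and 47 in App_HFD 561, with median ratios of 2.02, 1.72 and 1.35. App_NCD 537 had 30 members above and 15 below all wild-type libraries, and App_NCD 553 had 24 above and 36 below. The share of all genes outside the wild-type range in each library was not worked out. These counts therefore describe the members and do not set them apart from other genes. Over the 15 libraries other than 553, a single component held 88.7% of the members' variance, so the members are not independent observations. The correlation of a member with the mean of the others (Pearson's r over these 15 libraries) ran from 0.811 for Rps27l to 0.997 for Rpl14.

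**Figure D2:**
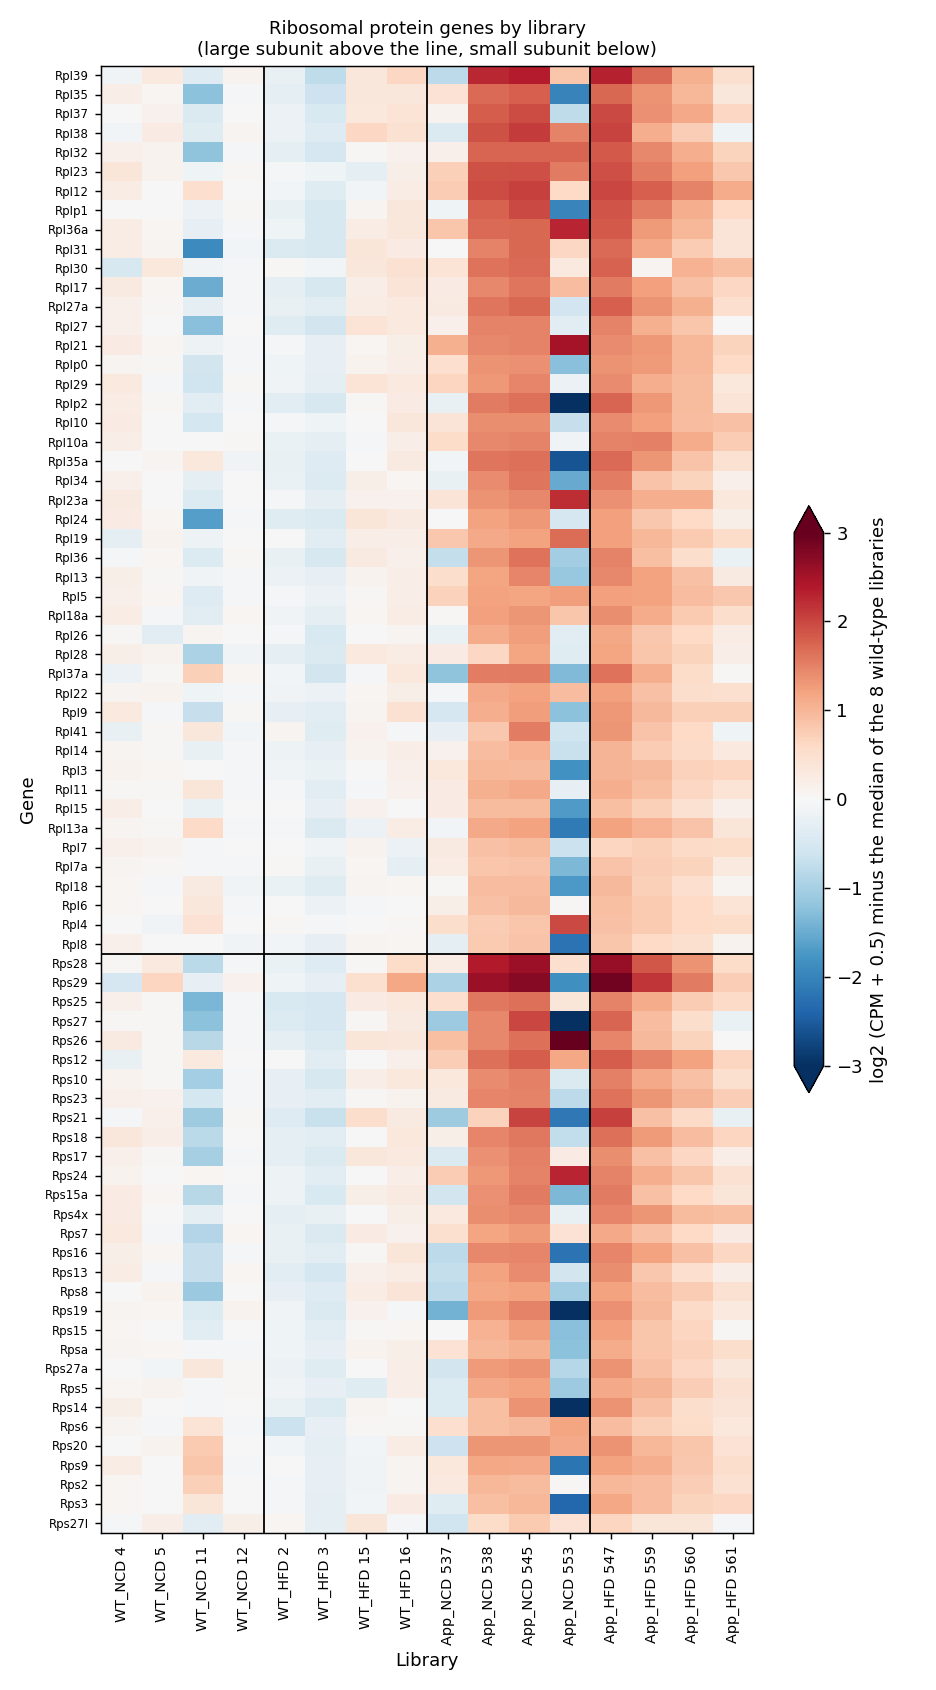
Level of the members (rows, large subunit above the line, 1 small subunit member not drawn) in each library (columns, in groups of 4), as log2 (CPM + 0.5) minus the median of the 8 wild-type libraries, with red above and blue below it. Nearly every row is red in App_NCD 538 and 545 and in App_HFD 547, paler from 559 to 561, and mixed in App_NCD 537 and 553.

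On the control diet, App libraries had higher levels of ribosomal protein mRNA than wild type, with all 77 fitted differences positive. Of the 77 members, 20 were called higher and 0 lower at an adjusted p under 0.05 (edgeR's quasi-likelihood test with Benjamini-Hochberg adjustment over 21768 genes), where 6.5% of all genes were called higher and 1.88% lower. The median log2 fold change was 0.89 over the members and -0.02 over all genes, and single members ran from 0.16 for Rps3 to 2.58 for Rps26. Without App_NCD 553, 48 members were called higher, where 10.2% of all genes were higher and 7.22% lower, and the median was 1.11. Levels did not overlap between the groups for 16 members, against 7.66% of all genes, and for 35 without 553, against 14.3%. The difference rested on App_NCD 538 and 545: without both, the median was -0.11, with 12 members called higher and 6 lower. The number called was 13 without 545, and 11 without WT_NCD 5 or WT_NCD 12. Shares of all genes called are not given here for the fits without these libraries.

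On the high-fat diet, the family was again higher in App libraries, with all 77 differences positive. Here 18 members were called higher and 0 lower, where 5.09% of all genes were called higher and 2.05% lower. Without App_NCD 553, 51 were called, where 10.8% of all genes were called higher and 8.54% lower. That library is in neither group of this comparison and acts through the shared estimate of the spread, the scaling and the set of genes tested (22322 without it). The median log2 fold change was 0.98, or 0.96 without 553, and single members ran from 0.32 for Rps27l to 1.75 for Rps28. Levels did not overlap between the groups for 55 members, against 15% of all genes (14.8% without 553). The number called fell to 5 without WT_HFD 3 or App_HFD 547, to 6 without WT_HFD 2 or App_HFD 559 and to 8 without WT_HFD 15. Shares of all genes called are not given here for these 5 fits.

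The calls on the 2 diets overlapped. The 2 comparisons share no library, but both come from 1 fit with a shared estimate of each gene's spread. The overlap is therefore not independent agreement, and the overlap to expect from the number of calls was not worked out. With all libraries, 13 members were called on both diets, which is 65% of the 20 and 72.2% of the 18. Without 553, 44 were called on both, or 91.7% of the 48 and 86.3% of the 51. Across the 77 members, the log2 fold changes of the 2 comparisons had a Pearson's r of 0.780 without 553 and of 0.579 with it. Both subunits took part: without 553, 34 of 46 large and 14 of 31 small subunit members were called on the control diet, with medians of 1.12 and 1.08, and 33 and 18 on the high-fat diet, with medians of 0.96 and 0.96. The number of large and small subunit members called was not compared by a test.

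**Figure D3:**
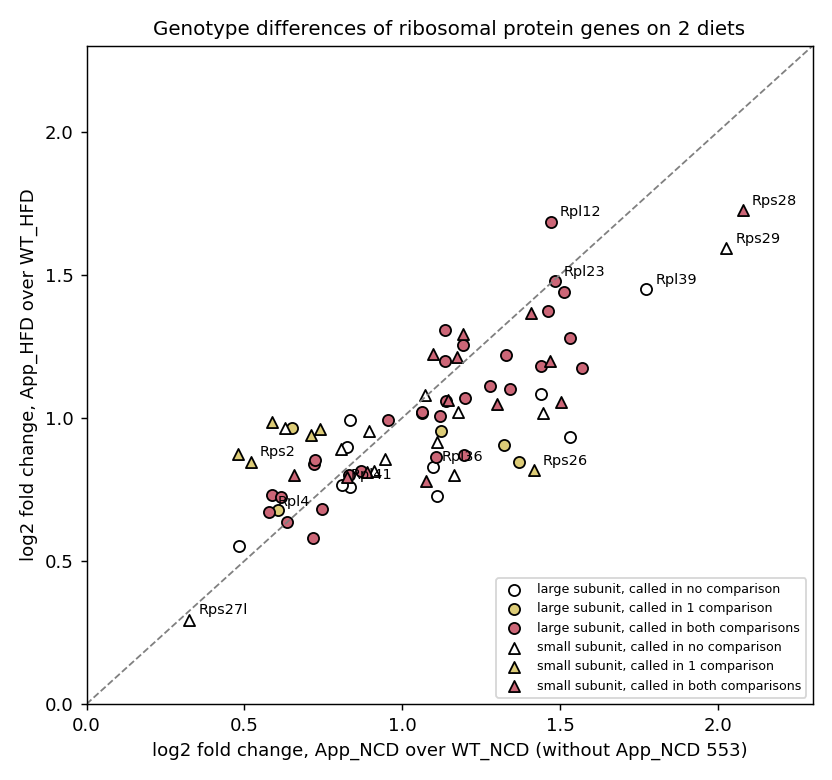
Each point is 1 member, with its log2 fold change between App and wild type on the control diet without App_NCD 553 (horizontal axis) against that on the high-fat diet (vertical axis), circles for the large and triangles for the small subunit, and colour for the number of comparisons in which it was called. All 77 points lie above 0 on both axes, from Rps27l at the lower left to Rps28 at the right.

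The stalk proteins Rplp0, Rplp1 and Rplp2 form the flexible arm of the large subunit that recruits translation factors. Rplp0 (ENSMUSG00000067274, chr5:115559467-115563727) was at 234, 227, 150.2 and 216 CPM in WT_NCD and at 203, 188, 236 and 253 in WT_HFD. App_NCD had 315, 564, 575 and 93.2 CPM, and App_HFD had 567, 534, 439 and 334. Of the 8 App values, 7 were above the highest wild-type value, and 553 was the lowest of all 16. Its log2 fold change was 0.90 ± 0.39 (SE, adjusted p = 0.152) under NCD and 1.09 ± 0.39 (SE, adjusted p = 0.117) under HFD with all libraries, and 1.20 ± 0.22 (SE, adjusted p = 0.00154) and 1.07 ± 0.20 (SE, adjusted p = 0.00188) without 553.

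Rplp1, a partner of Rplp2 in the tip of the stalk, was at 167, 172, 150.4 and 173 CPM in WT_NCD and at 144, 121, 179 and 214 in WT_HFD. App_NCD had 154, 577, 670.4 and 42.9 CPM, and App_HFD had 624, 493, 359 and 255. App_NCD 537 was level with wild type and 553 far below it, whereas the other 6 App libraries were above every wild-type library. Without 553 the fitted log2 difference was 1.46 ± 0.38 (SE, adjusted p = 0.0166) under NCD and 1.37 ± 0.36 (SE, adjusted p = 0.0139) under HFD. Rplp2 was at 109, 95.3, 73.9 and 90.9 CPM in WT_NCD and at 73.5, 66.6, 94.5 and 110.4 in WT_HFD. App_NCD had 79.5, 275, 292 and 9.14 CPM, and App_HFD had 310.4, 227, 178 and 120.4. The pattern was that of Rplp1, with 9.14 CPM in 553. None of the 3 stalk genes passed the test with all 16 libraries, and all 3 passed in both comparisons without 553. Rpl12, which binds at the base of the stalk, was at 129, 109, 156 and 111 CPM in WT_NCD and at 103, 85.9, 104 and 129 in WT_HFD. App_NCD had 187, 432, 455 and 165 CPM, and App_HFD had 445, 384, 310.1 and 239. All 8 App values were above all 8 wild-type values, for 553 on its scaled CPM, which its low TMM factor raises. The log2 fold change of Rpl12 was 1.30 ± 0.31 (SE, adjusted p = 0.0156) under NCD (1.47 ± 0.26 (SE) without 553) and 1.71 ± 0.31 (SE, adjusted p = 0.00297) under HFD.

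Rpl5 and Rpl11 bind 5S ribosomal RNA, and outside the ribosome they restrain Mdm2 and so stabilise p53. Rpl5 (ENSMUSG00000058558, chr5:107900502-107909005) was at 222, 208, 151 and 189 CPM in WT_NCD and at 195, 174, 202 and 228 in WT_HFD. App_NCD had 322, 459, 450.5 and 471 CPM, and App_HFD had 467, 459, 374 and 345. Every App library was above every wild-type library, 553 included on its scaled CPM, which its low TMM factor raises. Its log2 fold change was 1.14 ± 0.17 (SE, adjusted p = 0.000431) under NCD, the smallest adjusted p of any member there, and 1.04 ± 0.17 (SE, adjusted p = 0.00107) under HFD. Without 553 the control-diet value was 1.06 ± 0.16 (SE). Rpl11 was at 129, 129.8, 163 and 123 CPM in WT_NCD and at 120.0, 100.4, 120.2 and 138 in WT_HFD. App_NCD had 149.9, 262, 276 and 106 CPM, and App_HFD had 270.5, 237, 193 and 168. WT_NCD 11 was above 537 and 553. The log2 fold change of Rpl11 did not pass on the control diet (0.55 ± 0.25 (SE, adjusted p = 0.185)) and passed without 553 (0.72 ± 0.20 (SE, adjusted p = 0.0217)).

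Other large subunit members were among the smallest adjusted p-values. Rpl21 was at 259, 228, 196 and 211 CPM in WT_NCD and at 209, 185, 229.9 and 248 in WT_HFD. App_NCD had 457, 592, 611 and 1234 CPM, and App_HFD had 584, 542, 437 and 350.1. Log2 fold changes were 1.70 ± 0.26 (SE, adjusted p = 0.000755) under NCD and 1.13 ± 0.26 (SE, adjusted p = 0.0134) under HFD. Rpl19, which helps bridge the subunits, was at 130.4, 169, 141 and 159 CPM in WT_NCD and at 156, 125, 181 and 181 in WT_HFD. App_NCD had 277, 346, 367 and 506 CPM, and App_HFD had 372, 314, 270.2 and 232. The 2 comparisons gave 1.32 ± 0.20 (SE, adjusted p = 0.000598) and 0.89 ± 0.20 (SE, adjusted p = 0.0114). On the scaled CPM, in both genes all 4 App_NCD libraries were above all WT_NCD libraries and 553 was the highest library of all 16. Without it the control-diet values were 1.28 ± 0.16 (SE, adjusted p = 8.62e-05) for Rpl21 and 1.11 ± 0.17 (SE, adjusted p = 0.000328) for Rpl19. Rpl23, another ribosomal protein that can bind Mdm2, was at 194, 164, 139 and 156 CPM in WT_NCD and at 148, 139, 127 and 171 in WT_HFD. App_NCD had 251, 569, 581 and 452 CPM, and App_HFD had 585, 444, 360.4 and 267. Its 2 differences were 1.50 ± 0.26 (SE, adjusted p = 0.00193) and 1.50 ± 0.26 (SE, adjusted p = 0.0022), and the first was 1.48 ± 0.26 (SE) without 553.

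Other large subunit members called on the control diet were Rpl23a, a binding site for the signal recognition particle at the tunnel exit, at 1.51 ± 0.31 (SE, adjusted p = 0.00636), and Rpl36a at 1.73 ± 0.32 (SE, adjusted p = 0.00299). Without 553 they were lower but still called, at 1.12 ± 0.25 (SE, adjusted p = 0.00637) and 1.44 ± 0.29 (SE, adjusted p = 0.00347). Rpl10a, of the L1 stalk where the spent tRNA leaves, was called on the high-fat diet at 1.33 ± 0.29 (SE, adjusted p = 0.00937). Rpl22, an RNA-binding member with a role in lymphocyte development, was at 79.5, 81.6, 69.6 and 73.2 CPM in WT_NCD and at 70.8, 66.7, 78.1 and 85.7 in WT_HFD. App_NCD had 72.4, 167, 176 and 145 CPM, and App_HFD had 178, 140.3, 110.1 and 105. It was called on both diets, at 0.88 ± 0.23 (SE, adjusted p = 0.0289) and 0.82 ± 0.23 (SE, adjusted p = 0.0439), and without 553 at 0.83 ± 0.24 (SE, adjusted p = 0.0254) on the first. Rpl3 and Rpl4, which reach the catalytic centre and the exit tunnel, were pulled in opposite directions by 553. Rpl3 was at 295, 287, 276 and 265 CPM in WT_NCD and at 255, 236, 270.5 and 306 in WT_HFD. App_NCD had 342, 543, 537 and 76.7 CPM, and App_HFD had 552, 539, 439 and 429.8. With 553 the lowest library, its control-diet log2 fold change was 0.42 ± 0.38 (SE, adjusted p = 0.495) with and 0.72 ± 0.15 (SE, adjusted p = 0.00383) without 553. Rpl4 was at 382, 358, 522 and 388 CPM in WT_NCD and at 397, 379, 382 and 396 in WT_HFD. App_NCD had 551, 656, 682 and 1513 CPM, and App_HFD had 705, 660.1, 588 and 559.8. Here 553 was the highest, and the same pair of values was 1.04 ± 0.25 (SE, adjusted p = 0.0189) and 0.58 ± 0.13 (SE, adjusted p = 0.00747). Rpl10, the last protein to join the large subunit, was called in both comparisons only without 553, at 1.14 ± 0.22 (SE, adjusted p = 0.00288) and 1.06 ± 0.21 (SE, adjusted p = 0.00245).

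Some large subunit members were scattered between libraries and were called in neither fit. Rpl39, which lines the exit tunnel, was at 48, 63.9, 39.8 and 55.8 CPM in WT_NCD and at 44.1, 30.4, 65.4 and 79.5 in WT_HFD. App_NCD had 29.8, 248, 267 and 92.1 CPM, and App_HFD had 259.5, 168, 109 and 72.8. Its log2 fold change was 1.62 ± 0.55 (SE, adjusted p = 0.0783) under NCD and 1.47 ± 0.54 (SE, adjusted p = 0.133) under HFD. Without 553 the adjusted p-values were 0.0567 and 0.0926, so that it was not called in either fit. Rpl41, the smallest ribosomal protein, was at 165, 197, 244 and 184 CPM in WT_NCD and at 205, 149, 211 and 190.2 in WT_HFD. App_NCD had 162, 341, 558 and 127 CPM, and App_HFD had 484, 350.5, 293 and 178. It did not pass, at 0.59 ± 0.38 (SE, adjusted p = 0.336) and 0.79 ± 0.38 (SE, adjusted p = 0.299), nor without 553, at 0.81 ± 0.34 (SE, adjusted p = 0.113) and 0.77 ± 0.32 (SE, adjusted p = 0.112). App_NCD 537 was below all WT_NCD libraries in both genes. Rpl36 and Rpl37a also did not pass, with log2 fold changes on the control diet of 0.82 ± 0.49 (SE) and 0.55 ± 0.56 (SE), and of 1.10 ± 0.44 (SE) and 0.83 ± 0.52 (SE) without 553.

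In the small subunit, Rps6, whose protein is the classic phosphorylation target of S6 kinase below mTORC1, was at 250.3, 227, 313 and 232 CPM in WT_NCD and at 152, 201, 241 and 244 in WT_HFD. App_NCD had 334, 440.4, 461 and 539 CPM, and App_HFD had 450.2, 388, 346 and 297. On the scaled CPM, all App_NCD values were above all WT_NCD values, and the same held on the high-fat diet. The log2 fold changes were 0.80 ± 0.19 (SE, adjusted p = 0.0182) under NCD and 0.82 ± 0.19 (SE, adjusted p = 0.0157) under HFD, and without 553 the first was 0.66 ± 0.18 (SE, adjusted p = 0.0221). Rps12 was at 109, 131, 156 and 129 CPM in WT_NCD and at 127, 102, 127 and 143 in WT_HFD. App_NCD had 214, 405, 454 and 287 CPM, and App_HFD had 454, 361, 295 and 201. It was called at 1.37 ± 0.25 (SE, adjusted p = 0.00334) and 1.39 ± 0.25 (SE, adjusted p = 0.00327), and the first was 1.41 ± 0.26 (SE) without 553. Rps24, a gene mutated in Diamond-Blackfan anaemia, reached 1.53 ± 0.28 (SE, adjusted p = 0.00261) and 1.09 ± 0.27 (SE, adjusted p = 0.0236). Without 553 its control-diet value was 1.15 ± 0.20 (SE, adjusted p = 0.00141).

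Rps4x, the X-linked form of Rps4, was at 228, 191, 160.4 and 195 CPM in WT_NCD and at 161, 166, 195 and 217 in WT_HFD. App_NCD had 235, 510.1, 527 and 165 CPM, and App_HFD had 535, 481, 375 and 358. It was called on the high-fat diet at 1.24 ± 0.30 (SE, adjusted p = 0.019), and its value on the control diet was 0.89 ± 0.30 (SE, adjusted p = 0.0767). Without 553 it was called on both diets, with 1.10 ± 0.23 (SE, adjusted p = 0.00399) on the control diet. With all libraries, Rps2 was likewise called on the high-fat diet, at 0.87 ± 0.22 (SE, adjusted p = 0.0271), and not on the control diet, at 0.40 ± 0.22 (SE, adjusted p = 0.261). Rps25 was called on the control diet, at 1.35 ± 0.37 (SE, adjusted p = 0.0349), and not on the high-fat diet, at 1.08 ± 0.37 (SE, adjusted p = 0.0984). Without 553, Rps25 was called on both diets, at 1.50 ± 0.35 (SE, adjusted p = 0.00999) and 1.06 ± 0.33 (SE, adjusted p = 0.0374), and Rps2 on the high-fat diet alone, with 0.52 ± 0.20 (SE, adjusted p = 0.0806) on the control diet. The interaction test of diet and genotype was not passed by any of the 3 in either fit. Rpsa, which is also known as a laminin receptor, was at 253, 249, 229.8 and 232 CPM in WT_NCD and at 220.3, 202, 259.6 and 273 in WT_HFD. App_NCD had 327, 477, 503 and 102 CPM, and App_HFD had 516, 429, 385 and 347. It passed in both comparisons only without 553, at 0.82 ± 0.16 (SE, adjusted p = 0.00218) and 0.79 ± 0.15 (SE, adjusted p = 0.00146).

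Rps26 and Rps19 show how library 553 worked on single genes. Rps26 (ENSMUSG00000025362, chr10:128624534-128626747), which contacts the mRNA upstream of the start codon, was at 106, 88.6, 48.6 and 85.6 CPM in WT_NCD and at 72.7, 64.7, 112 and 109 in WT_HFD. App_NCD had 163, 236, 273 and 1292 CPM, and App_HFD had 243, 173, 138 and 87.7. Library 553 was far above every other library. The log2 fold change of Rps26 on the control diet was 2.58 ± 0.56 (SE, adjusted p = 0.00948) with and 1.42 ± 0.31 (SE, adjusted p = 0.00677) without that library, and on the high-fat diet it did not pass (0.84 ± 0.53 (SE, adjusted p = 0.486)). Rps19, the gene most often mutated in Diamond-Blackfan anaemia, was at 72.4, 70.8, 51.2 and 73.2 CPM in WT_NCD and at 62.8, 50.2, 73.8 and 65 in WT_HFD. App_NCD had 25.3, 165, 192 and 5.93 CPM, and App_HFD had 176, 134, 101 and 83.2. It was low in both 537 and 553 and high in the other 6 App libraries, and it was not called in either fit, with adjusted p-values of 0.194 and 0.149 without 553. Rps14 was at 5.25 CPM in 553, against 119 to 410.5 CPM elsewhere.

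Rps27 and Rps27l encode 2 versions of one small subunit protein, and Rps27l is a p53 target. Rps27l was the lowest member, at 18.4, 22.1, 15 and 21.8 CPM in WT_NCD and at 20.1, 15.7, 25.1 and 18.3 in WT_HFD. App_NCD had 12.6, 28.3, 33.5 and 26.3 CPM, and App_HFD had 30.3, 24.8, 24.9 and 18.7. The genotype groups overlapped on both diets. Log2 fold changes were 0.38 ± 0.25 (SE, adjusted p = 0.35) and 0.32 ± 0.25 (SE, adjusted p = 0.631), the smallest of all members on the high-fat diet. Rps27 was at 108, 109, 44.8 and 104 CPM in WT_NCD and at 80.5, 74.7, 109 and 128 in WT_HFD. App_NCD had 49.7, 291, 425 and 7.81 CPM, and App_HFD had 357, 202, 153 and 93.2. Its values were 1.08 ± 0.76 (SE, adjusted p = 0.379) and 1.04 ± 0.76 (SE, adjusted p = 0.583). Rps27a, which is made as a fusion with ubiquitin, was at 122, 116, 157 and 126 CPM in WT_NCD and at 109, 96.4, 124 and 141 in WT_HFD. App_NCD had 83.8, 299, 317 and 67.6 CPM, and App_HFD had 316, 227, 189 and 156. The 2 values were 0.56 ± 0.40 (SE, adjusted p = 0.387) and 0.91 ± 0.40 (SE, adjusted p = 0.235). None of these genes was called with all libraries, and none without 553.

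Rps28 and Rps29, small proteins of the head of the small subunit that were singled out here after their values were seen, had the largest control-diet fold changes without 553. Rps28 (271 bases) was at 44, 53.1, 24.4 and 42.2 CPM in WT_NCD and at 37.2, 33, 44.4 and 63.6 in WT_HFD. App_NCD had 50.4, 225, 256 and 61.4 CPM, and App_HFD had 267, 159, 109.6 and 63.1. App_NCD 538 and 545 and App_HFD 547, 559 and 560 were above every wild-type library, and 537, 553 and 561 were within the wild-type range. Log2 fold changes were 1.86 ± 0.52 (SE, adjusted p = 0.0386) and 1.75 ± 0.52 (SE, adjusted p = 0.0539) with all libraries, and 2.08 ± 0.52 (SE, adjusted p = 0.0162) and 1.73 ± 0.49 (SE, adjusted p = 0.0259) without 553. Rps29 was at 44.1, 97.9, 52.9 and 69 CPM in WT_NCD and at 57.2, 53, 88.2 and 141 in WT_HFD. App_NCD had 32.2, 378, 417 and 17.3 CPM, and App_HFD had 469.8, 279, 185 and 105. The differences of 2.03 ± 0.69 (SE) and 1.59 ± 0.65 (SE) did not pass.

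Levels between genes were compared per kilobase of transcript (mean CPM per kb over 15 libraries), and ran from 32.8 for Rps20 to 597 for Rpl41, with a median of 247. Rplp1 was at 595 and Rps15 at 529.9, and Rps27l was at 44. The low value of Rps20 uses an annotated transcript of 3706 bases, where the median member has 681. Without scaling by length, Rpl4, Rpl3 and Rpl21 had the highest mean CPM. Around the threshold of 1 CPM, the lowest members were Rps27l at 22.9 and Rpl36 at 78.8 CPM and the highest matching rows under it were Rpl32l at 0.266 and Rpl39l at 0.207 CPM. The pseudogene Rpl6l, at 1.65 CPM, lay just above the threshold and was left out for its annotation. The rows named as ribosomal protein pseudogenes by a -ps ending (291 rows) together held counts equal to 0.961 to 1.50% of the members' counts in each library. Pseudogenes with other names, such as Rpl6l and Rps4l, are not in that sum. Each member's value is uncertain to the extent that reads were shared with such copies.

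Among members, shorter transcripts tended to have larger differences on the control diet, while other genes of the same length had medians near 0. Across the 77 members, the log2 fold change without 553 had a Pearson's r with log2 transcript length of -0.42 on the control diet and -0.15 on the high-fat diet. The relation changed sign between App libraries. For the members' log2 difference from their own median over 15 libraries, r with length was -0.37 in App_NCD 538 and -0.56 in 545. It was -0.50 in App_HFD 547, but 0.30 in App_NCD 537 and 0.43 in App_HFD 561. In the wild-type library WT_NCD 11 it was 0.33, and the other wild-type libraries were not examined. The 18 members under 500 bases had a median of 1.25 on the control diet, against 0.07 for 54 other protein-coding genes of that length at 10 CPM or more. For 22 members of 500 to 750 bases the median was 1.12 and for 214 other genes 0.03, and for 11 members of 1000 to 1500 bases it was 0.96 and for 808 other genes -0.07. On the high-fat diet the members under 500 bases had a median of 1.03 and the other genes 0.03. Genes other than members with transcripts under 1000 bases took 5.72 to 7.59% of counts in wild-type libraries and 6.09 to 8.12% in App libraries other than 553, where they took 12.5%. This share moved with the members' mean log2 CPM from library to library, with a Pearson's r of 0.953 over the 7 App libraries other than 553 and 0.879 over the 8 wild-type libraries. In the same App libraries the mean log2 CPM of mitochondrial ribosomal protein genes had an r of 0.983 and that of oxidative phosphorylation genes 0.978 with the members, against 0.664 and 0.438 over the wild-type libraries. The points share depth and scaling, and the part of such differences between libraries in the genotype result was not tested. The members' GC content had an r of -0.05 with the control-diet difference. Members with a pyrimidine tract at the annotated start had medians of 1.17 and 1.02 on the 2 diets, and those without one had 1.07 and 0.96.

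**Figure D4:**
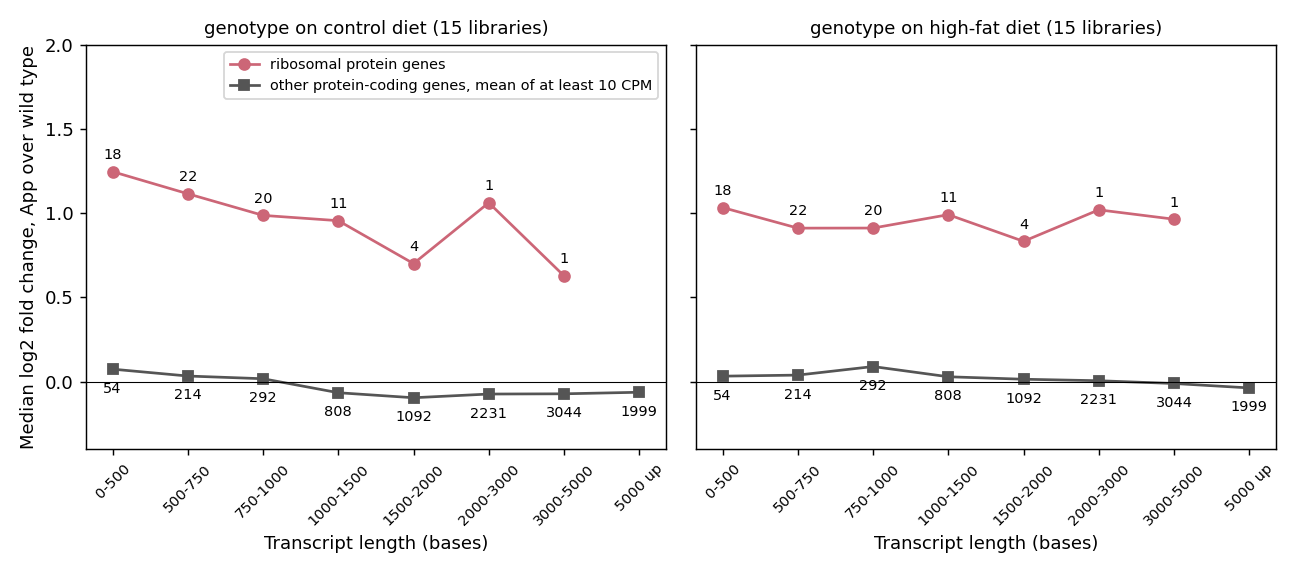
Median log2 fold change between App and wild type (vertical axis) by transcript length in bases (horizontal axis), without App_NCD 553, for members and for other protein-coding genes, with the number of genes beside each point and 1 panel per diet. Members lie between 0.63 and 1.25 and the other genes between -0.09 and 0.09 in every length class.

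In 3 libraries the members were out of step with each other. The SD of the members' log2 difference from their own median over 15 libraries was 0.621 in WT_NCD 11, 0.525 in App_NCD 537 and 1.55 in App_NCD 553, against 0.114 to 0.371 in the other 13. In WT_NCD 11, Rpl31 was at 23.4 CPM against a median of 107, Rpl24 at 29.5 against 111 and Rpl17 at 37.4 against 128, whereas Rpl37a was at 149.6 against 93.8. In App_NCD 537, Rps29, Rps19, Rpl37a, Rps21 and Rpl39 were the lowest relative to their medians, at log2 differences of -1.60 to -1.13, and Rpl21, Rpl19, Rps26, Rps24 and Rpl5 were the highest, at 0.82 to 0.50. Across members, the differences in 537 and 553 had a Pearson's r of 0.516, and those in WT_NCD 11 and 537 one of 0.032. The microglial marker sums of 537, at 11468 CPM for the homeostatic and 6834 CPM for the plaque-associated list, were within the range of the other App libraries. Its share of ribosomal protein counts was within the wild-type range. The part of microglial RNA in that share was not tested.

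Diet alone moved no member past the test. In wild-type mice, 0 of 77 members were called, 0 had an unadjusted p under 0.05, and the median log2 difference of WT_HFD from WT_NCD was -0.01, where 0% of all genes were called and 1.92% had an unadjusted p under 0.05. In App mice, 0 were called and 2 had an unadjusted p under 0.05, where 0% of all genes were called and 11.9% had one. The median in App mice was 0.15 with 553 and -0.08 without it. DESeq2 and limma-voom with quality weights also called 0 in both. Among the most abundant members, the diet difference in App mice was -0.15 ± 0.18 (SE) for Rps6, -0.05 ± 0.16 (SE) for Rpsa, 0.05 ± 0.23 (SE) for Rps4x, 0.05 ± 0.15 (SE) for Rpl3 and 0.00 ± 0.13 (SE) for Rpl4 on the log2 scale without 553. In wild-type mice the same genes were at -0.29 ± 0.17 (SE), -0.02 ± 0.15 (SE), -0.07 ± 0.21 (SE), -0.08 ± 0.14 (SE) and -0.09 ± 0.12 (SE). The intervals these errors give do not show that the diets act alike. Without App_NCD 538 and 545, 37 members were called higher and 1 lower on the high-fat diet in App mice.

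The effect of genotype was not shown to differ between the diets. In the test of the interaction 0 members were called and 1 had an unadjusted p under 0.05, where 0% of all genes were called and 2.94% had one. That member was Rps26 at -1.74 ± 0.75 (SE) (unadjusted p = 0.0346, adjusted p = 0.851), and without 553 it was -0.60 ± 0.43 (SE) with an unadjusted p of 0.182. The next smallest were Rpl19 at -0.43 ± 0.28 (SE) and Rpl21 at -0.56 ± 0.36 (SE), both with an adjusted p of 0.851. The median interaction over the members was 0.16, and -0.07 without 553.

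Ribosomal proteins that fall outside the naming rule were in part called higher in App libraries. Fau encodes a ubiquitin-like fusion with Rps30, and Rack1 is a scaffold on the small subunit. Fau was at 151, 128, 113 and 129.7 CPM in WT_NCD and at 113, 95.6, 118 and 148 in WT_HFD. App_NCD had 176, 343, 414 and 64.7 CPM, and App_HFD had 401, 310.3, 249.8 and 167. It was higher in App_NCD 538 and 545 and in all App_HFD libraries than in any wild-type library, and in 553 it was lower than in any. Of 6 such genes, Rpl36al, Rpl7l1 and Rpl22l1 among them, 1 was called higher on the control diet and 0 on the high-fat diet with all libraries, where 6.5% and 5.09% of all genes were, and 4 in each comparison without 553, where 10.2% and 10.8% were. Rpl7l1 and Rpl22l1 were called in neither fit. Without 553, Fau was at 1.22 ± 0.27 (SE, adjusted p = 0.00679) and 1.23 ± 0.26 (SE, adjusted p = 0.0036), and Rack1 at 0.84 ± 0.15 (SE, adjusted p = 0.00175) and 0.98 ± 0.15 (SE, adjusted p = 0.00025).

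Elongation factors and other genes known for 5′ TOP mRNAs were in part called higher. Of 20, 6 were called higher on the control diet and 4 on the high-fat diet, against 6.5% and 5.09% of all genes. Without 553, 10 and 13 were called higher, against 10.2% and 10.8%, with 0 lower and medians of 0.43 and 0.49. Pabpc1, the poly(A)-binding protein, was at 237, 192, 222 and 194 CPM in WT_NCD and at 237, 200.2, 188 and 276 in WT_HFD. App_NCD had 716, 492, 516 and 961 CPM, and App_HFD had 528, 606, 486 and 429. It was called at 1.67 ± 0.21 (SE, adjusted p = 0.000124) and 1.19 ± 0.21 (SE, adjusted p = 0.0022). Eef1a1, which brings aminoacyl-tRNA to the ribosome, was at 2692, 2661, 3216 and 2589.5 CPM in WT_NCD and at 2778, 2414, 2616 and 2726 in WT_HFD. App_NCD had 4432, 5274, 5154 and 3075 CPM, and App_HFD had 5034, 5309, 4468 and 4144. Calls were made at 0.68 ± 0.17 (SE, adjusted p = 0.0219) and 0.85 ± 0.17 (SE, adjusted p = 0.00625). In both genes App_NCD 537 was above every wild-type library, as it was for 30 of the 77 members. Eef2, which moves the ribosome along, was called without 553 at 0.51 ± 0.10 (SE, adjusted p = 0.00224) and 0.57 ± 0.09 (SE, adjusted p = 0.000455), and Tpt1 and Eif3h were called in both comparisons with all libraries.

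For other parts of the translation machinery the counts are given without 553, where 10.2% of all genes were called higher on the control diet and 10.8% on the high-fat diet. Of the initiation factors, 3 of 23 were called higher on the control diet and 1 on the high-fat diet, among them the helicase Eif4a1 at 0.44 ± 0.10 (SE, adjusted p = 0.00669) and 0.48 ± 0.09 (SE, adjusted p = 0.00188). Of 30 ribosome biogenesis genes 4 and 2 were called higher, and both lists were near the share of all genes or below it. Pes1 was called in both, at 0.43 ± 0.07 (SE, adjusted p = 0.000472) and 0.35 ± 0.06 (SE, adjusted p = 0.00117), and Myc on the control diet at 1.10 ± 0.30 (SE, adjusted p = 0.0218). Of 25 genes of mTORC1 and its control of translation, 2 were called higher and 2 lower on the control diet and 4 and 2 on the high-fat diet. These included Eif4ebp1, a repressor of cap-dependent translation, at 1.01 ± 0.20 (SE, adjusted p = 0.00321) and 0.92 ± 0.19 (SE, adjusted p = 0.00325), and Rragc, of the Rag GTPases that recruit mTORC1, at 0.47 ± 0.08 (SE, adjusted p = 0.000689) and 0.54 ± 0.07 (SE, adjusted p = 0.000112). Mitochondrial ribosomal protein genes were called in 2 and 1 of 78 cases, with medians of -0.01 and 0.01, and nuclear genes of oxidative phosphorylation were called higher in 0 of 70 on both diets and lower in 2 and 0. Of 12 genes of ribosome quality control and its p53 link, 2 were called higher and 1 lower on the control diet and 3 and 0 on the high-fat diet.

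**Figure D5:**
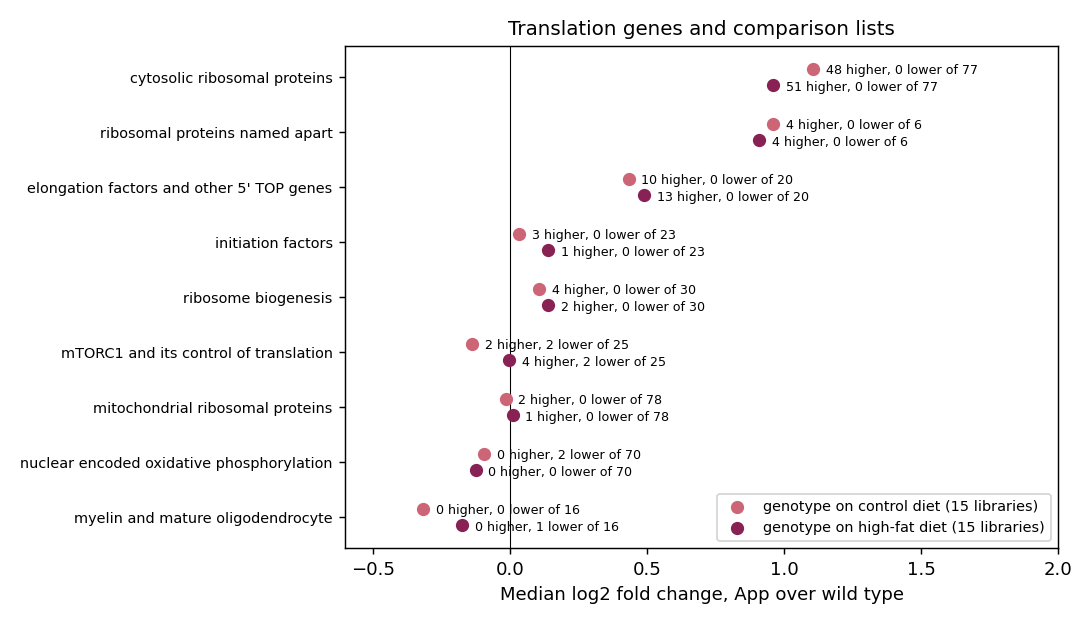
Median log2 fold change between App and wild type (horizontal axis) for the members and 8 other gene lists (rows), without App_NCD 553, with the number of genes called beside each point and 1 colour per diet. Cytosolic ribosomal proteins lie at 1.11 and 0.96, the 5′ TOP list at 0.43 and 0.49, and the mitochondrial ribosomal list at -0.01 and 0.01.

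Some marker lists of other cell types also differed between genotypes. The microglial lists moved in the same direction as the members. With all libraries, on the control diet 9 of 14 homeostatic markers and 11 of 11 plaque-associated markers were called higher, and on the high-fat diet 12 and 11. Of all genes, 6.5% and 5.09% were called higher on the 2 diets. Without 553, the counts were 12 and 11 on both diets, where 10.2% and 10.8% of all genes were called higher. Some markers of other cell types were called lower in App libraries. Without 553, 5 of 9 endothelial and 6 of 7 pericyte and smooth muscle markers were called lower on the control diet, and 3 and 3 on the high-fat diet. Of all genes, 7.22% and 8.54% were called lower on the 2 diets in that fit. Also without 553, 5 of 5 erythroid and 4 of 7 ependyma and choroid plexus markers were called lower on the high-fat diet. On the control diet 0 of either list were called in that fit. The summed level of the ependyma and choroid plexus list was 24281 to 29901 CPM in WT_NCD and 17614 to 35973 CPM in WT_HFD, against 8918 to 20881 CPM in App_NCD and 7027 to 14649 CPM in App_HFD. The pericyte list was at 188 to 241 and 122 to 282 CPM in the wild-type groups and at 96.5 to 159 and 124 to 157 CPM in the App groups. For endothelial markers the sums overlapped on both diets, at 199 to 388 and 196 to 439.7 CPM against 162 to 267 and 234 to 276 CPM. The erythroid list was at 384 to 9049 CPM in WT_HFD and at 147 to 467 CPM in App_HFD, so that its sums overlapped between these groups. Astrocyte markers were called lower in 2 of 8 cases on the control diet without 553. On the high-fat diet 1 was called lower and 1 higher, near the shares of all genes. The astrocyte sums were 2803 to 4323 and 3303 to 4763 CPM in the wild-type and 1843 to 5905 and 2341 to 3390.2 CPM in the App groups. None of the markers in these lists was at 0 in all libraries. Over the 15 libraries other than 553, the members' mean log2 CPM had a Pearson's r of 0.846 with that of the homeostatic and 0.826 with that of the plaque-associated microglial list, of -0.782 with the astrocyte and of -0.713 with the pericyte list. These points share the genotype split. The part of these cell types in the ribosomal protein result was not tested.

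The genes most like the family were found by Pearson's r with the members' mean log2 CPM over the 15 libraries other than 553, among 9825 other genes at 10 CPM or more. Among the 8 highest were Ssr4 (0.979), Fau (0.979), Tpt1 (0.977), the transcribed pseudogenes 2810025M15Rik (0.976) and Gm10275 (0.972), Eif3e (0.974) and Hpf1 (0.971). The 8 lowest were Chn1 (-0.967), Lmtk2 (-0.950), Ahi1 (-0.946), Dhx36 (-0.940), Fam184a (-0.940), Acsl6 (-0.936), Acvr2a (-0.935) and Syne1 (-0.933). There were 123 genes with r over 0.9 and 45 under -0.9. The points share library depth and the genotype split, and these values describe likeness only.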

How the data were processed

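Polyadenylated RNA of sorted oligodendrocytes was sequenced in 16 libraries (4 groups of 4). The authors' deposited table holds estimated counts per gene, which are whole numbers. Per the submitters' processing notes, fastp 0.23.2, HISAT2 2.2.1, bedtools 2.25.0 and StringTie 2.2.1 were used with mm10; annotation and the treatment of reads that fit several copies are not given in the sources used here. Gene IDs matched GENCODE M21 in 99.8% of 53801 rows, and transcript length is that of the shortest transcript of the best APPRIS class.

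Members and lists were chosen with earlier results of these data known. Counts were fitted with edgeR 4.0.16 (filterByExpr, TMM, robust quasi-likelihood test over all 4 groups, 12 residual degrees of freedom). P-values were adjusted by Benjamini-Hochberg across every tested gene, with a threshold of 0.05, and CPM was scaled by TMM. Log2 CPM used a prior of 0.5. The procedure was tested on simulated data with independent genes and the same shift in every App_NCD library. The members here move together and differ between App_NCD libraries, so that test does not bear on their calls. DESeq2 1.42.0 and limma 3.58.1 (R 4.3.3) were alternatives. Genes were named by a fixed rule: per comparison up to 6 called members of each subunit with the smallest adjusted p, a preset list, the extremes of level, of correlation with the others and of interaction p, the 8 most and 8 least alike other genes, and up to 4 called genes per pathway list. Results of some genes that the rule names are not reported here. Genes named outside it were chosen after their values were seen.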

Additional observations from a re-analysis of the deposited data

Results flagged for a closer look

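Within groups of 4, a library whose gap to its nearest neighbour was too large a part of the group's range by Dixon's criterion was set aside for a closer look, which chance gives in about 1 group in 20. This happened in 7 of 140 sets of values. In 4 of them the library was WT_NCD 11. It was low for Rps19 (51.2 CPM, with the nearest library at 70.8) and Rps27 (44.8 CPM, nearest 104), and high for Rpl11 (163 CPM, nearest 129.8) and Rps2 (282 CPM, nearest 179). App_NCD 553 was high for Rpl4 (1513 CPM, nearest 682) and for Rps26 (1292 CPM, nearest 273). App_NCD 537 was low for Rpl5 (322 CPM, nearest 450.5), where it was still above every wild-type library.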

How the results depend on the processing

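No paired analysis was possible because the groups share no replicate number. For most settings below, the share of all genes called is not given. A higher count of members is therefore not stronger evidence about the members, since more of all genes may have been called too. The control-diet count of 20 members called became 9 with library totals, 46 with scaling to the oligodendrocyte list, 32 with an offset by transcript length, 75 with limma-voom and quality weights, and 7 with only the groups compared. Leaving out 1 library at a time gave 11 to 48, and the median log2 fold change 0.59 to 1.11. Without App_NCD 538 and 545 the median was -0.11, and many named members turned negative on the control diet. Of these, 3 were then called lower: Rpl37a at -1.52, Rps19 at -2.14 and Rps27a at -0.83. A further 14 named members turned negative and were called in neither fit. The high-fat count of 18 became 11 with library totals, 37 with oligodendrocyte scaling, 75 with limma-voom, 65 with only the groups compared and 34 without 538 and 545, and 5 to 51 when leaving out 1 library at a time. In App mice the diet count of 0 became 38 without 538 and 545, with a median of 1.02, and the median interaction became 1.12.

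Settings added after the data were seen all left out App_NCD 553, alone or with a further change. The control-diet and high-fat counts were then 48 and 48 with library totals, 69 and 62 with oligodendrocyte scaling, 59 and 64 with the length offset, 44 and 57 without WT_NCD 11, and 76 and 67 without App_NCD 537. In both genotype comparisons no member was called lower in any setting except without 538 and 545 on the control diet. RLE size factors, non-robust dispersions, DESeq2 and both other low-count filters moved no count by over 1.5 times. Depth was high in every library, and with 4 libraries a group the spread between them sets the standard errors. Depth also went with the members' level. The log2 total counts had a Pearson's r of -0.66 with the members' mean log2 CPM over the 15 libraries other than 553. It was -0.74 over the 7 App libraries among them and 0.02 over the 8 wild-type libraries. The part of depth in the genotype result was not tested.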
